A study of Rattus norvegicus with 20 samples.

Results

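The mitochondrial solute carriers of the SLC25 family were examined in the medial prefrontal cortex (mPFC) of rats treated chronically with LSD. Members were all gene symbols of the form *Slc25a* followed by a number alone, that had 5 or more reads in no fewer than 10 of the 20 libraries. Of 49 such symbols in the deposited matrix, 42 were kept, out of 16605 genes kept from 31038. The rats were male Sprague-Dawley, aged 6 to 8 weeks at the start by the labels and somewhat older by the study's methods. The LSD group (n = 10 rats) received 0.16 mg/kg LSD by intraperitoneal injection every other day for 90 days, and the saline group (n = 10 rats) received sterile saline on the same schedule. Both groups were then left without treatment, for 3 weeks by the series' design text and somewhat longer by the study's methods, so that the comparison addresses changes that outlast the drug. One library of poly(A)-selected RNA was sequenced per rat, and tissue from 1 hemisphere was dissected as a whole, with all its cell types together.

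SLC25 proteins sit in the inner mitochondrial membrane, with few exceptions, and exchange metabolites between the cytosol and the matrix. They let ADP in and ATP out, bring in phosphate, and carry the aspartate, glutamate, malate and oxoglutarate that move reducing equivalents from glycolysis to the respiratory chain. Other members carry citrate, amino acids, carnitine esters, nucleotides, cofactors, glutathione and iron, and a few resemble the uncoupling proteins that let protons leak back. In the cortex, where ATP demand is high, the adenine nucleotide, phosphate and aspartate-glutamate carriers serve neuronal respiration, while one of the glutamate carriers is known mainly from astrocytes.

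Reads on genes ranged from 16346629 to 25552681 in the LSD group and from 11098076 to 24201351 in the saline group. The mean correlation of a library with the others of its group was between 0.987 and 0.994. The defining markers of neurons and glia were expressed in all libraries, with summed neuronal markers between 6500 and 8581 normalised RPM (reads on a gene scaled to a common library size, after correction by TMM, the trimmed mean of M-values). In 4 rats, LSD 9 and saline 2, 8 and 9, 6 striatal markers summed to between 432 and 634 normalised RPM, against 190 to 285 in the other 16, and 8 oligodendrocyte markers were also highest there (6052 to 7833 against 2384 to 5697). Counts of members are therefore also given without these 4 rats, an alternative chosen after seeing the data.

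Several carriers were lower in LSD-treated rats. In edgeR's quasi-likelihood test over all 16605 genes, with p-values adjusted by the Benjamini-Hochberg method and called at 0.05, 9 of the 42 members were lower and 2 were higher, while 31 did not pass. Of all genes tested, 14.9% passed, 8.45% being lower and 6.44% higher. The lower members carry citrate (*Slc25a1*), basic amino acids (*Slc25a29*), glutathione (*Slc25a39*), ATP-Mg (*Slc25a23*), dicarboxylates (*Slc25a10*), ADP and ATP (*Slc25a4*), oxoglutarate (*Slc25a11*), iron (*Slc25a28*) and glutamate (*Slc25a18*), and their log2 fold changes lay between -0.41 and -0.17. The higher members were *Slc25a30*, a relative of the uncoupling proteins (0.20), and *Slc25a36*, a pyrimidine nucleotide carrier (0.19). Without the 4 rats rich in striatal markers, 9 members were lower and 1 was higher, and all 9 were the ones lower in all rats. With scaling by total counts, 5 were lower and 2 higher. The median log2 fold change over the 42 members was -0.054, and over all genes tested it was 0.0022. In bulk tissue, fewer cells of a type and less RNA per cell cannot be told apart.

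**Figure D1:**
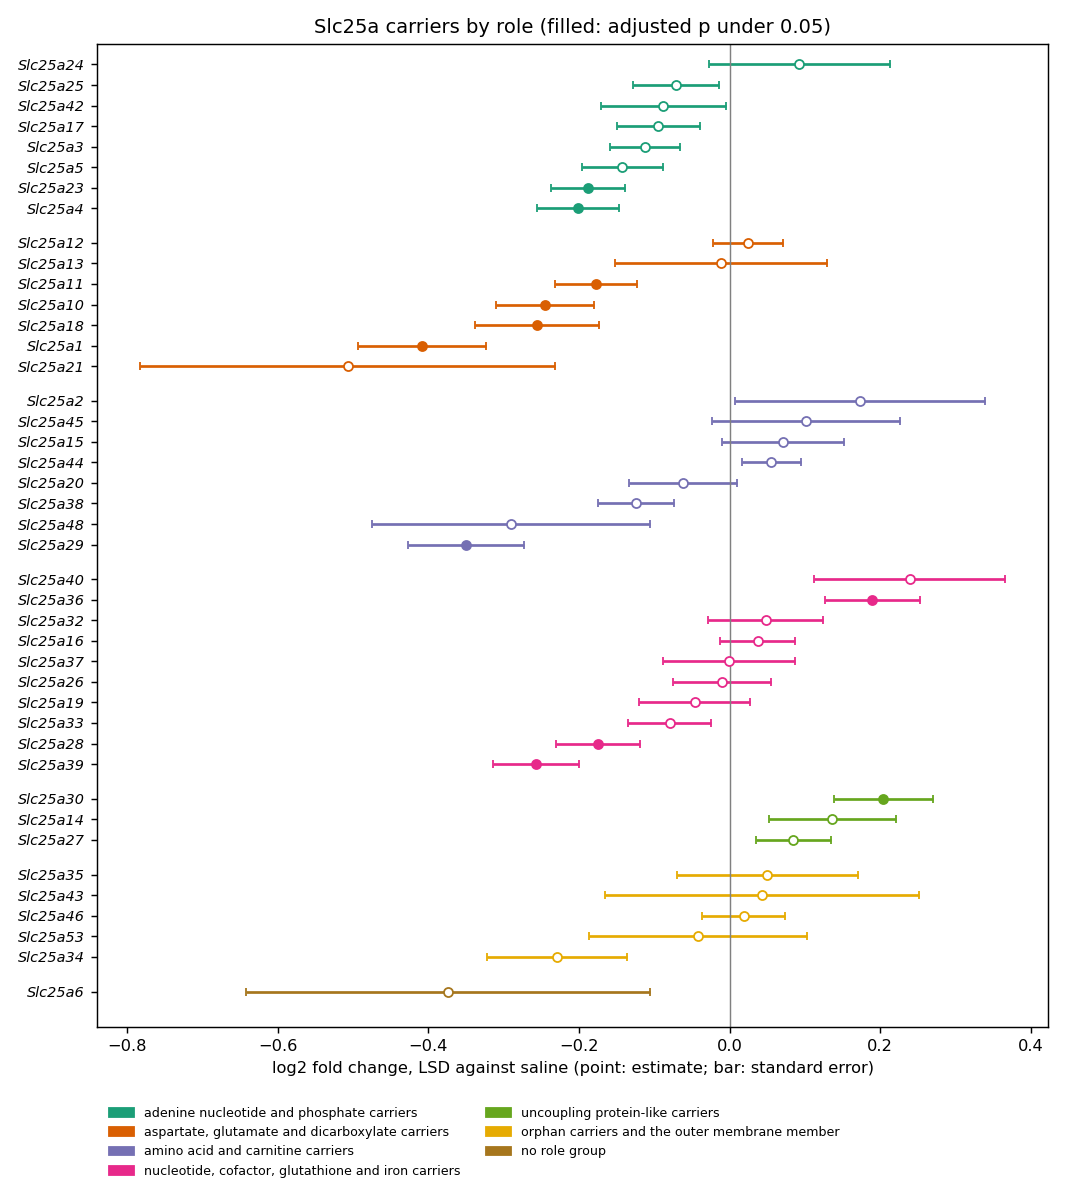
Log2 fold change (x axis) of each of the 42 kept members (y axis) between 10 LSD-treated and 10 saline-treated rats, grouped and coloured by what the carrier moves. Points are edgeR estimates, bars are standard errors and filled points passed an adjusted p of 0.05; the 9 filled points left of 0 are spread over 4 role groups, and the 2 right of 0 are *Slc25a30* and *Slc25a36*.

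Because 9 members were lower, their promoters were read for short motifs. RefSeq's GRCr8 table (a newer build than the rn6 genome of the counts) gave the 250 bases before the first listed start for 35 of the 42 members by symbol, among them all 9 lower members and neither higher one. CCAAT, the box bound by the factor NF-Y, was found on either strand in 7 of the 9 lower members, in 13 of the 26 members that did not pass, and in 34.3% of 27457 promoters of the same length. Among genes tested here with a promoter, 34.6% held it. The GC box GGGCGG was present in 6 of the 9 (55.6% of genes tested), and TATAAA, the nuclear receptor half-site AAGGTCA and the palindromic NRF1 site in none of the 9 (6.81%, 2.62% and 1.48% of genes tested). The motifs were chosen with the calls known, none of them contains another, and a match in this window is not a measured site. The promoters of the 2 lower members with the smallest p-values, of the lower member of the ADP/ATP pair and of the lower member with the most CCAAT boxes are shown 5′ to 3′ up to the base before the start, with CCAAT or its reverse complement ATTGG in capitals.
Slc25a1: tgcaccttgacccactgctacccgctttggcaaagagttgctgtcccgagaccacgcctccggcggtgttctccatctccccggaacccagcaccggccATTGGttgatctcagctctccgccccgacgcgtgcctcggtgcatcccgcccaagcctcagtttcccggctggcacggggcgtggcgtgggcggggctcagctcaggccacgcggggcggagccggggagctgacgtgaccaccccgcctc
Slc25a29: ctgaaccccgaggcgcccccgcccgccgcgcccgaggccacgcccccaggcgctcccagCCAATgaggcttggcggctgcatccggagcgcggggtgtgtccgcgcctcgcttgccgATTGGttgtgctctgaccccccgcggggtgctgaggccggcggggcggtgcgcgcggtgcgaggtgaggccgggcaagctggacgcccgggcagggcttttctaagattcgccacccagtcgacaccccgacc
Slc25a4: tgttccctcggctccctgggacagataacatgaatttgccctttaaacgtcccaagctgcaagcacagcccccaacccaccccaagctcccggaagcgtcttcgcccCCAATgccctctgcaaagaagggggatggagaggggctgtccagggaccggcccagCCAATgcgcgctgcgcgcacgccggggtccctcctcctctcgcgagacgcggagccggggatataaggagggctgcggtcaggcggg
Slc25a28: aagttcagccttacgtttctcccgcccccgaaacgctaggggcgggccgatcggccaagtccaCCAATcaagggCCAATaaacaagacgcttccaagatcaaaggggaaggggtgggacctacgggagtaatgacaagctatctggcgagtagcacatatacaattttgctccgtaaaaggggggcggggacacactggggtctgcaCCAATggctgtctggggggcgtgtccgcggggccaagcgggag
In GRCr8 these lie at chr11:96559804-96560053 (plus strand), chr6:133517198-133517447 (minus strand), chr16:52805271-52805520 (plus strand) and chr1:252491343-252491592 (minus strand). *Slc25a1* holds 1 CCAAT box, *Slc25a29* and *Slc25a4* hold 2 each and *Slc25a28* holds 3. Their GC content over these 250 bases was 69.6%, 74.8%, 65.6% and 58.8%.

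Among the carriers of aspartate, glutamate and dicarboxylates, with the citrate carrier *Slc25a1* counted here, 4 of 7 kept members were lower and none was higher. Over all genes tested, 8.45% were lower and 6.44% higher. The median log2 fold change of this group was -0.25, and that of all genes tested was 0.0022. *Slc25a1* exports citrate, the source of cytosolic acetyl groups for fatty acid and sterol synthesis. It ranged from 34.1 to 46.3 normalised RPM (median 40.1) in LSD-treated rats and from 38.0 to 72.9 (median 53.9) in controls. All 10 LSD-treated rats were below the control median, 4 of them below every control, and 9 controls were above every LSD-treated rat. Its mean fell by 24.7%, from 53.2 ± 9.41 to 40.01 ± 3.68 (SD, n = 10 rats per group), with a log2 fold change of -0.41 (standard error 0.085, edgeR adjusted p = 0.00636).

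*Slc25a10* exchanges malate and succinate for phosphate, and ranged from 44.0 to 50.6 normalised RPM (median 49.0) in LSD-treated rats and from 44.3 to 66.5 (median 56.5) in controls. The groups overlapped only through the lowest control, since 9 of the 10 controls were above all treated rats. On the log2 scale it changed by -0.25 (standard error 0.065, edgeR adjusted p = 0.0162). *Slc25a11*, the oxoglutarate-malate carrier of the malate-aspartate shuttle, had 103 to 120.3 normalised RPM (median 113) with LSD and 103 to 144 (median 128) with saline. The lowest control was below all LSD-treated rats, and 7 controls were above all of them. The change was -0.18 on the log2 scale (standard error 0.055, edgeR adjusted p = 0.0316).

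*Slc25a18*, the glutamate carrier known from astrocytes, ranged from 74.1 to 97.9 normalised RPM (median 85.8) in LSD-treated rats and from 68.8 to 124 (median 103) in controls. Again 7 controls were above all LSD-treated rats and 1 was below all of them, the control numbered 8, which is one of the rats rich in striatal markers. The log2 fold change was -0.26 (standard error 0.082, edgeR adjusted p = 0.0385). Over 8 astrocyte markers, 1 was higher and none lower, beside 6.44% and 8.45% of all genes tested. Their sum was 2990 to 3795 normalised RPM with LSD and 2932 to 3684 with saline. The part of this sum in the result was not tested. The other glutamate carrier, *Slc25a22*, had 0 to 16 reads and was not kept, so that this pair could not be compared. *Slc25a22* is known as a brain carrier, and since the annotation used for counting is not given, these reads cannot be taken as its expression level.

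The aspartate-glutamate carriers, which complete the malate-aspartate shuttle, did not pass the threshold. *Slc25a12*, the form found in neurons, had 135 ± 10.5 normalised RPM (SD, n = 10) with LSD and 133 ± 5.58 with saline, a log2 fold change of 0.025 (standard error 0.046, edgeR adjusted p = 0.767) that turned to -0.059 after offsets for gene span. *Slc25a13*, its paralogue, had 4.56 ± 0.995 and 4.57 ± 1.13 (edgeR adjusted p = 0.968), and the sign of its fold change of -0.011 turned with total-count scaling and with some rats left out. *Slc25a21*, a carrier of oxoadipate, had only 1 to 13 reads per rat and a log2 fold change of -0.51 with a standard error of 0.28 (edgeR adjusted p = 0.218).

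Of 8 adenine nucleotide and phosphate carriers, 2 were lower and 7 had a negative log2 fold change (median -0.10). Over all genes tested, 8.45% were lower and 8237 of 16605 had a negative log2 fold change. *Slc25a4*, the ADP/ATP translocase of heart, muscle and brain, took between 7491 and 17040 reads per rat. It ranged from 544 to 645 normalised RPM (median 580.0) in LSD-treated rats and from 569 to 790.3 (median 684) in controls. All 10 LSD-treated rats were below the control median and 7 controls were above every LSD-treated rat. The mean fell from 674 ± 61.7 to 587 ± 33.7 (SD, n = 10), with a log2 fold change of -0.20 (standard error 0.054, edgeR adjusted p = 0.0180). *Slc25a23*, a calcium-regulated carrier that exchanges ATP-Mg for phosphate, ranged from 599 to 698 normalised RPM (median 635) with LSD and from 660 to 833 (median 708) with saline. Here 7 of the LSD-treated rats were below every control. On the log2 scale the change was -0.19 (standard error 0.049, edgeR adjusted p = 0.0158).

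The remaining adenine nucleotide and phosphate carriers did not pass. *Slc25a5*, the second ADP/ATP translocase, had 81.3 ± 4.11 normalised RPM with LSD and 89.8 ± 8.86 with saline (SD, n = 10), a log2 fold change of -0.14 (edgeR adjusted p = 0.0732), and 9 of 10 LSD-treated rats were below the control median. *Slc25a3*, the phosphate carrier, had 317 ± 11.2 and 343 ± 26.6 (log2 fold change -0.11, edgeR adjusted p = 0.102), with all 10 below the control median. DESeq2 called both of them lower, with adjusted p-values of 0.0399 and 0.0416. *Slc25a25*, a second ATP-Mg carrier, had 81.0 ± 6.25 and 85.2 ± 7.86 (log2 fold change -0.071, edgeR adjusted p = 0.419). *Slc25a17*, *Slc25a24* and *Slc25a42* had log2 fold changes between -0.095 and 0.092. Reads that fit both *Slc25a4* and *Slc25a5*, whose coding sequences are much alike, may be split or lost in counting.

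Of the 8 amino acid and carnitine carriers, *Slc25a29* alone passed the threshold, beside 14.9% of all genes tested. *Slc25a29* carries basic amino acids such as arginine and lysine. It ranged from 22.1 to 29.6 normalised RPM (median 24.1) in LSD-treated rats and from 25.6 to 39.2 (median 31.7) in controls, and 8 of the 10 LSD-treated rats were below every control. The mean fell by 21.5%, with a log2 fold change of -0.35 (standard error 0.077, edgeR adjusted p = 0.00752). The other 7, which include the glycine carrier *Slc25a38*, the carnitine-acylcarnitine carrier *Slc25a20* and the branched-chain amino acid carrier *Slc25a44*, had log2 fold changes between -0.29 and 0.17. *Slc25a38* had the smallest adjusted p among these 7 (0.0934, edgeR), and its log2 fold change was -0.12.

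Of 10 carriers of nucleotides, cofactors, glutathione and iron, 2 were lower and 1 higher, beside 8.45% and 6.44% of all genes tested. *Slc25a39* imports glutathione, the main matrix antioxidant. It ranged from 33.9 to 41.2 normalised RPM (median 37.1) with LSD and from 39.4 to 53.9 (median 44.4) with saline, and 8 LSD-treated rats were below every control. Its log2 fold change was -0.26 (standard error 0.058, edgeR adjusted p = 0.00808). *Slc25a40*, its paralogue, had 16 to 72 reads per rat, 2.38 ± 0.308 normalised RPM with LSD and 1.98 ± 0.472 with saline, and its log2 fold change of 0.24 did not pass (edgeR adjusted p = 0.206).

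*Slc25a28*, a mitoferrin that brings iron in for haem and iron-sulphur clusters, ranged from 44.5 to 51.3 normalised RPM (median 46.2) with LSD and from 45.6 to 60.8 (median 53.7) with saline. All 10 LSD-treated rats were below the control median, but only 3 were below every control. Its log2 fold change was -0.17 (standard error 0.056, edgeR adjusted p = 0.0384). The other mitoferrin, *Slc25a37*, best known from red cell precursors, had 6.16 ± 0.717 and 6.14 ± 0.883 normalised RPM (edgeR adjusted p = 0.994), with a fold change so near 0 that its sign turned with the scaling. *Slc25a36*, a pyrimidine nucleotide carrier, ranged from 29.3 to 38.0 normalised RPM (median 34.6) with LSD and from 23.9 to 33.5 (median 31.2) with saline, and 7 LSD-treated rats were above every control. Its log2 fold change was 0.19 (standard error 0.063, edgeR adjusted p = 0.0448). *Slc25a33*, the other pyrimidine nucleotide carrier, had 37.2 ± 2.35 and 39.3 ± 3.75 (log2 fold change -0.080, edgeR adjusted p = 0.347).

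All 3 kept *Slc25a* carriers related to the uncoupling proteins had a positive log2 fold change, and *Slc25a30* passed the threshold. Over all genes tested, 8368 of 16605 had a positive log2 fold change and 6.44% were higher. Of the uncoupling proteins themselves, *Ucp2* (-0.031) and *Ucp3* (-0.25) were tested and did not pass (edgeR adjusted p = 0.880 and 0.622). *Slc25a30* ranged from 10.01 to 12.7 normalised RPM (median 11.2) in LSD-treated rats and from 8.26 to 11.5 (median 9.89) in controls, on 113 to 339 reads per rat. All 10 LSD-treated rats were above the control median and 7 controls were below all of the treated rats. The rise was 0.20 on the log2 scale (standard error 0.066, edgeR adjusted p = 0.0399). The log2 fold changes of *Slc25a14* and *Slc25a27*, both of which are known from brain, were 0.14 and 0.085 and did not pass (edgeR adjusted p = 0.287 and 0.26). None of the 5 orphan or outer membrane members passed, among them *Slc25a46*, a factor of mitochondrial shape in the outer membrane, with 77.2 ± 4.86 normalised RPM with LSD and 76.1 ± 7.34 with saline. *Slc25a6*, which had 2 to 7 reads per rat, was not placed in a role group. The counts by role, that of the adenine nucleotide carriers included, leave it out. Its log2 fold change was -0.37 (edgeR adjusted p = 0.374).

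**Figure D2:**
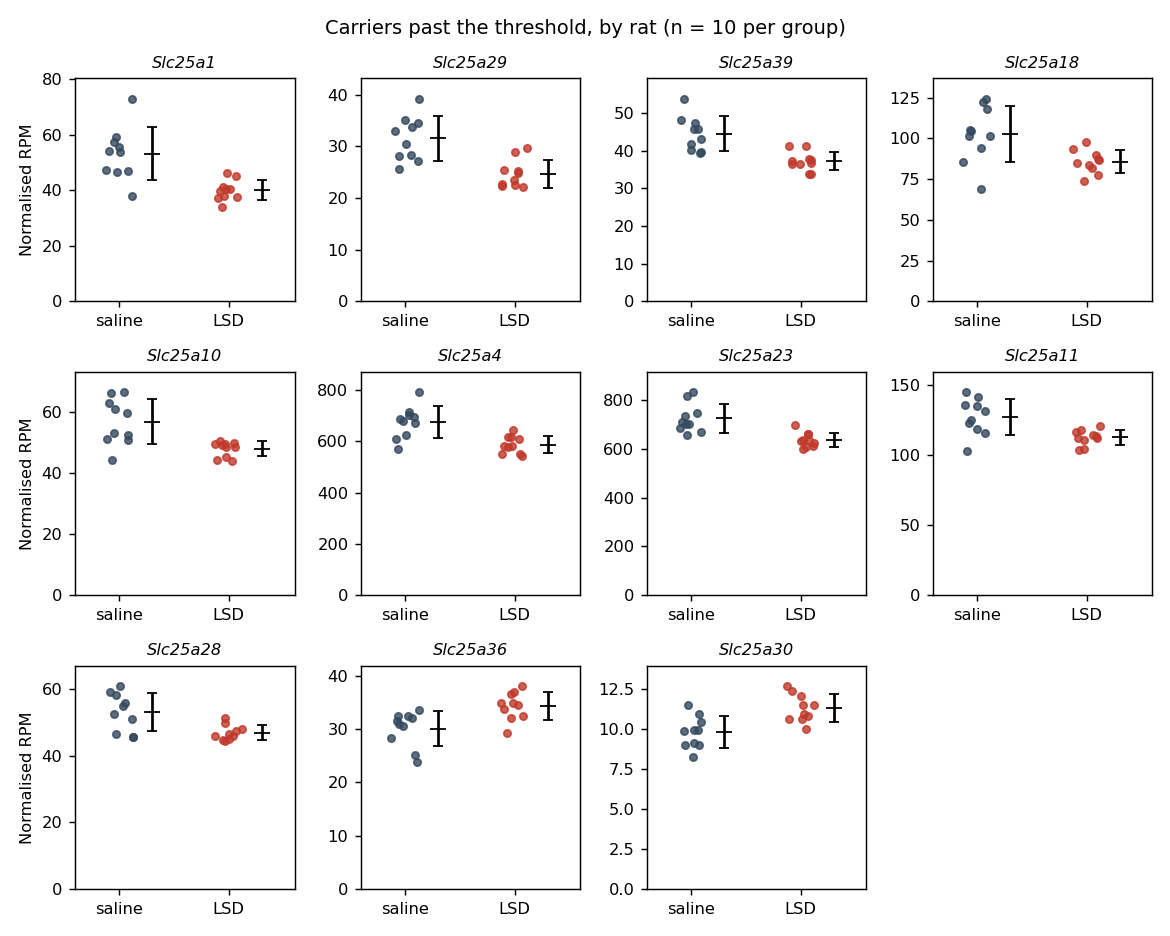
Normalised RPM (y axis, from 0) of the 11 carriers past the threshold in each of the 10 saline-treated (grey) and 10 LSD-treated (red) rats; horizontal marks are means and bars are SDs over rats. In *Slc25a1* and *Slc25a10*, 9 of the 10 controls lie above every LSD-treated rat, while for *Slc25a11* and *Slc25a18* the lowest control lies below all of them.

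Some of these calls did not hold with 1 rat left out. *Slc25a1*, *Slc25a29*, *Slc25a39*, *Slc25a23*, *Slc25a10* and *Slc25a4* passed the threshold with each of the 20 rats left out in turn, with adjusted p-values of at most 0.0365. *Slc25a11* passed in 14 of 20 runs, and not without LSD 8 or 9 or saline 1, 4, 5 or 9 (edgeR adjusted p up to 0.0662). *Slc25a18* passed in 9, and not without LSD 3, 4, 5, 7, 8 or 10 or saline 1, 4, 5, 6 or 9 (up to 0.0797). *Slc25a28* passed in 8, and not without LSD 2, 3, 6, 7, 8 or 10 or saline 1, 3, 4, 5, 6 or 9 (up to 0.0810). *Slc25a30* passed in 10, and not without LSD 2, 4, 5, 7 or 8 or saline 1, 3, 4, 6 or 8 (up to 0.0766). *Slc25a36* passed in 7, and not without LSD 2, 3, 4, 5, 6, 8 or 9 or saline 1, 3, 4, 5, 6 or 9 (up to 0.0845). In these runs the log2 fold change was -0.21 to -0.16 for *Slc25a11*, -0.31 to -0.22 for *Slc25a18* and -0.20 to -0.15 for *Slc25a28*. It was 0.18 to 0.23 for *Slc25a30* and 0.16 to 0.22 for *Slc25a36*. The number of lower members lay between 6 and 12, and that of higher ones between 0 and 2.

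The lower carriers lay in shorter genes than most other members. By RefSeq's GRCr8 annotation, in which all 42 members were found by symbol or synonym, the 9 lower members span 2852 to 20611 bases (median 7500), the 2 higher ones 22636 and 33886, and the 31 others 1240 to 499458 (median 29178). Across the members, Spearman's rho between span and log2 fold change was 0.32, and across all 14929 tested genes with a span it was 0.36; genes share their libraries and are not independent replicates. Of 12 members with a span of up to 10000 bases 5 were lower, and 18.1% of the 3759 tested genes of that length were. Between 10000 and 30000 bases 4 of 14 members and 9.96% of genes were lower, and above it none of 16 members and 3.32% of genes (limits chosen after the values were seen). With an offset for span in each rat, centred so as to leave the rat's median in place, 4 members were lower (*Slc25a1*, *Slc25a29*, *Slc25a39* and *Slc25a23*, with log2 fold changes of -0.33, -0.30, -0.18 and -0.16) and *Slc25a30* was higher (0.21). *Slc25a4* then had -0.12 (edgeR adjusted p = 0.0927), *Slc25a10* -0.18 (0.0550), *Slc25a11* -0.092 (0.197), *Slc25a28* -0.14 (0.0881) and *Slc25a18* -0.24 (0.0575), the last against -0.26 without the offset. The higher *Slc25a36* had 0.15 (edgeR adjusted p = 0.0939). The offsets were estimated from the same rats, and the part of gene length in the result was not tested otherwise.

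**Figure D3:**
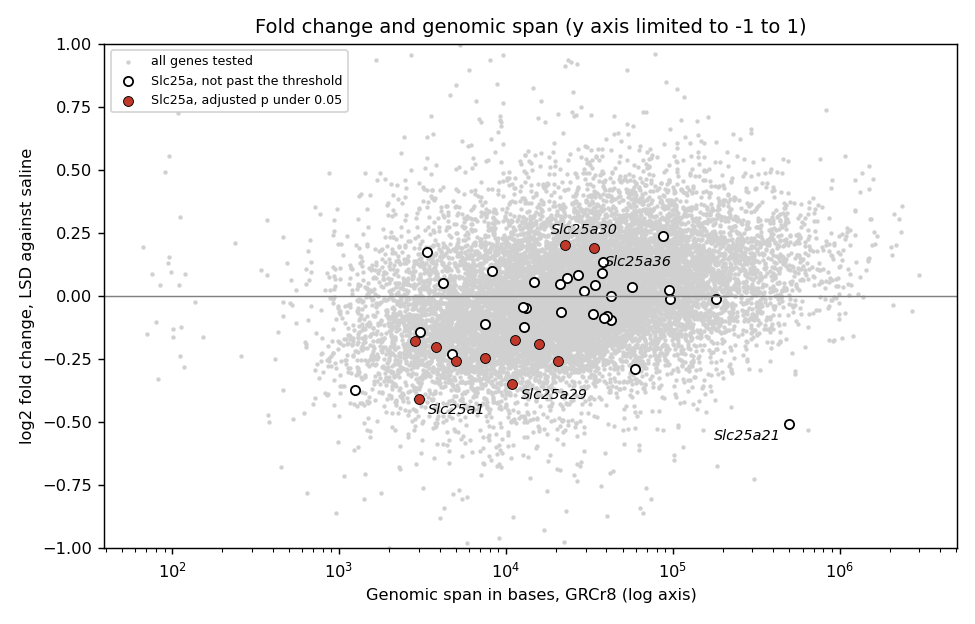
Log2 fold change between LSD and saline (y axis, limited to -1 to 1) against genomic span in GRCr8 (x axis, log scale) for all genes tested (grey) and the 42 *Slc25a* members (circles, red where the adjusted p was under 0.05). The 9 lower members lie between 2852 and 20611 bases, and *Slc25a21*, the longest member at 499458 bases, did not pass.

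Carriers of like substrates were also compared with each other within each rat, as the log2 ratio of their reads, which does not depend on library size or scaling. Of 6 pairs, 5 had both members kept, and p-values from a two-sided permutation test over rats were adjusted over these 5. The ratio of *Slc25a33* to *Slc25a36* was 0.12 ± 0.18 with LSD and 0.39 ± 0.29 with saline (SD, n = 10), a difference of -0.27 (p = 0.0177, adjusted p = 0.0884, permutation test). It was below the control median in 9 of 10 LSD-treated rats. The ratio of *Slc25a28* to *Slc25a37* differed by -0.17 (adjusted p = 0.124, permutation test), and that of *Slc25a23* to *Slc25a25* by -0.12 (adjusted p = 0.124, permutation test), each with all 10 LSD-treated rats below the control median. The ADP/ATP translocases *Slc25a4* and *Slc25a5* differed in ratio by -0.059 (adjusted p = 0.124, permutation test), from 2.91 ± 0.087 to 2.85 ± 0.050. *Slc25a12* to *Slc25a13* differed by 0.011 (adjusted p = 0.945, permutation test). No pair passed the threshold in this test with all rats, while with the replicate number as a block the log2 ratio difference Slc25a23/Slc25a25 did (adjusted p = 0.0195, exact sign-flip test). The sign-flip test treats same-numbered rats as pairs. Only 3 of 20 rats correlated best with their own number, so the numbers are not taken as pairing. *Slc25a33* to *Slc25a36* passed without LSD 10 or without saline 7, 8 or 10, and *Slc25a28* to *Slc25a37* without saline 8. Without the 4 rats rich in striatal markers, the log2 ratio difference Slc25a4/Slc25a5 (-0.085) and the log2 ratio difference Slc25a28/Slc25a37 (-0.24) did (adjusted p = 0.0456 for both, permutation test).

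**Figure D4:**
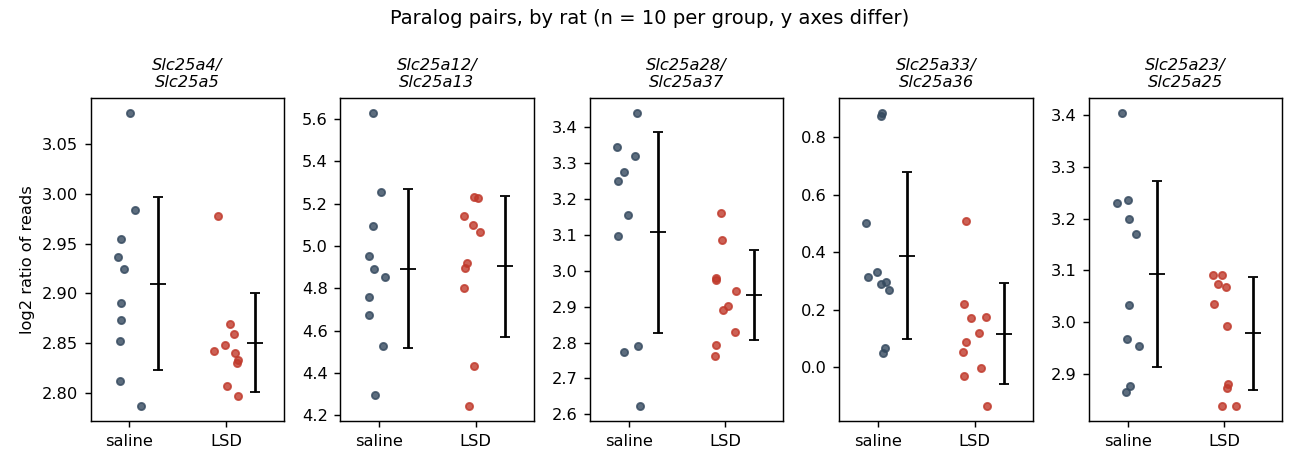
Log2 ratio of the reads on both carriers of a pair (y axes, which differ between panels) in each of 10 saline-treated (grey) and 10 LSD-treated (red) rats; horizontal marks are means and bars are SDs. The groups overlap in all 5 pairs, and the widest gap in means is that of *Slc25a33* to *Slc25a36*, at -0.27.

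Spread between rats was compared as well. The coefficient of variation (SD over mean) was lower with LSD in 37 of 42 members, with a median of 7.78% against 13.1%. This was so for 77.5% of all genes tested. With reads drawn down to the smallest library it held for 31 of 40 members and 73.1% of genes, and without the 4 rats rich in striatal markers for 35 of 42 members and 57.7% of genes. The share was not tested, since the members share their rats.

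Genes that work beside these carriers were read from lists written by function. Their counts stand against 8.45% lower and 6.44% higher over all genes tested. Of 4 tested family members under other symbols (the uncoupling proteins and the outer membrane proteins *Mtch1* and *Mtch2*), *Mtch1* was lower. It ranged from 683 to 892 normalised RPM with LSD and from 758 to 1090 with saline, with a log2 fold change of -0.35 (edgeR adjusted p = 0.00559), whereas *Mtch2* had 0.039. Among 17 genes of the pyruvate carrier, outer membrane channels and calcium uniporter, 3 were lower and 1 higher. *Smdt1*, the small subunit that holds the calcium uniporter in its active form, had a log2 fold change of -0.44 (edgeR adjusted p = 0.00392). *Mcu*, the uniporter's pore, had -0.16 (edgeR adjusted p = 0.0486), *Vdac2*, an outer membrane channel, -0.17 (0.0215), and *Mcur1*, a regulator of the uniporter, 0.24 (0.0351).

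Of 12 shuttle enzymes and their neighbours, 1 was lower and none higher, beside 8.45% and 6.44% of all genes tested. The lower one was *Mdh2*, the matrix malate dehydrogenase that works with the carriers encoded by *Slc25a11* and *Slc25a10*. It fell by 23.1%, from 422 ± 66.1 to 325 ± 31.6 normalised RPM (SD, n = 10), with a log2 fold change of -0.38 (edgeR adjusted p = 0.00654). None of 9 carnitine shuttle genes passed in either direction, with log2 fold changes between -0.12 and 0.17. Among 12 genes of import, membrane and biogenesis, 2 were higher and 3 lower. *Ppargc1a*, a coactivator of mitochondrial biogenesis, rose from 27.7 ± 3.53 to 35.9 ± 3.42 normalised RPM (log2 fold change 0.37, edgeR adjusted p = 0.00479), and *Hspa9*, the matrix chaperone of protein import, rose by 0.18 on the log2 scale (0.0216). *Phb*, a scaffold of the inner membrane, fell by 0.29 (0.00604), and *Nrf1*, a transcription factor of nuclear genes for mitochondrial proteins, fell by 0.17 (0.0296). The third lower gene was the import channel *Timm23* (-0.18, 0.0405), chosen here after its value was seen. Genes past the threshold in these lists span 3084 (*Smdt1*) to 655711 bases (*Ppargc1a*). The part of gene length in their changes was not tested beyond the span offsets.

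Marker lists of the cell types in the tissue were read beside all genes tested. Of those, 8.45% were lower, 6.44% were higher and 8237 of 16605 had a negative log2 fold change. All 8 oligodendrocyte markers had a negative log2 fold change (median -0.36), 1 of which passed the threshold, and 2 of 5 precursor markers were lower. Their summed levels were 2384 to 6052 normalised RPM with LSD and 2418 to 7833 with saline for oligodendrocytes, and 283 to 400.2 and 319 to 464 for precursors. The 2 lower precursor markers were *Olig1* and *Sox10* (log2 fold changes -0.32 and -0.41). *Pdgfra* (0.052), *Cspg4* (-0.16) and *Gpr17* (-0.045) did not pass. The 6 striatal markers (median -0.71) and the 5 blood markers (median -0.29) were all negative and none passed. Of 8 neuronal markers 1 was higher and 1 lower, of 6 endothelial markers 1 was higher, and none of 8 microglial and 4 choroid plexus markers passed. No marker tested was at 0 in every rat, though the choroid plexus marker *Folr1* had 0 reads in at least 1 control. The part of precursor and blood markers in the lower carriers was not tested. Without the 4 rats with the most striatal and oligodendrocyte markers, the log2 fold changes of the 9 lower carriers lay between -0.44 and -0.17.

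**Figure D5:**
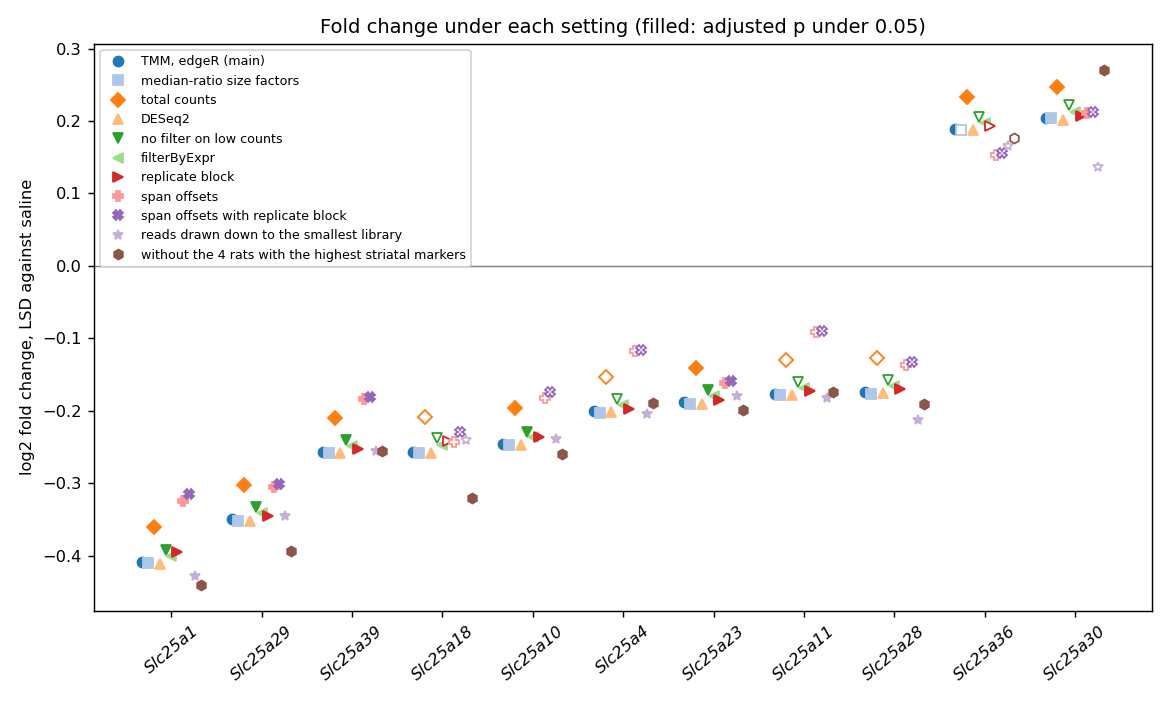
Log2 fold change (y axis) of the 11 carriers past the threshold (x axis) under the reported setting and 10 alternatives; filled symbols passed an adjusted p of 0.05. No carrier crossed 0, and *Slc25a1*, *Slc25a29*, *Slc25a39* and *Slc25a23* are filled under all 11.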

How the data were processed

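One mPFC library per rat was measured by RNA-seq (10 rats per group), with groups and numbers taken from the sample titles. The authors used TrimGalore for trimming and HISAT2 for alignment to rn6, and deposited raw counts per gene from HTSeq without normalisation; versions, annotation and strand setting are not given in the sources used here. The matrix ends with 5 rows without a name, 25.5% to 29.0% of each library's total, which entered no step.

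Genes reaching 5 reads in 10 or more libraries were tested with edgeR 4.0.16 (R 4.3.3; TMM, robust quasi-likelihood F test, standard error from the F value, Benjamini-Hochberg over 16605 genes). Precision is set by the spread over 10 rats. On simulated counts (16500 genes) the test called 10% of 50 genes changed by 0.25 on the log2 scale, 34% of 50 changed by 0.35 and 65.3% of 49 changed by 0.5. Only 200 genes were changed in that simulation, while 2472 of 16605 genes passed in the data. The adjustment over all genes is stricter where few genes change, so these shares are not detection rates for the members. Pair ratios added 0.5 read to each gene and used 100000 permutations. Span offsets averaged each rat's deviation in log2(RPM + 1) over 50 bins of genes ordered by GRCr8 span, smoothed over 5 bins and centred per rat. Alternatives were DESeq2 1.42.0, median-ratio and total-count scaling, other filters, the replicate number as a block, span offsets, reads drawn down to 11098076 and each rat left out. Named were all members past the threshold, the 3 smallest p-values of either direction, both members of each pair, the 5 with the most reads, and up to 4 called genes per list; any other gene named was chosen after its values were seen. Members, lists, pairs and motifs were chosen with earlier results of these data known. Protein sequences and rn6 coordinates were not used here.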

Additional observations from a re-analysis of the deposited data

Results flagged for a closer look

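Of 48 sets of 10 rats examined (19 named members and 5 pair ratios, in each group), 2 held a rat far from the others, and chance marks about 1 set in 20. *Slc25a37* had 8.24 normalised RPM in the saline rat numbered 8, against 5.42 to 6.64 in the other 9 controls. Of all rats, saline 8 had the highest summed blood markers, 761 normalised RPM, with saline 5 next at 595. Its summed striatal markers, 634, were also the highest. The part of either in this value was not tested. The log2 ratio of *Slc25a4* to *Slc25a5* was 2.98 in the LSD-treated rat numbered 1, against 2.80 to 2.87 in the other 9.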

How the results depend on the processing

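The 11 carriers past the threshold kept their direction under 10 alternatives in all 110 values, and 30 of these missed the threshold. Lower members numbered 9, but 5 with total counts, 5 without a filter on low counts, 4 with span offsets and 4 with span offsets and the replicate block, and between 6 and 12 with 1 rat left out. Higher members numbered 2, but 1 with median-ratio factors, with span offsets and without the 4 rats rich in striatal markers (chosen after seeing the data), 0 without a filter, with span offsets and the replicate block and with reads drawn down, and 0 to 2 with 1 rat left out; the cause was not tested. Over all genes, 1069 were higher and 1403 lower, against 1505 and 861 with total counts, 938 and 804 without a filter, 576 and 1108 with span offsets and 1711 and 1689 without the 4 rats. Shuttle enzymes held 1 lower gene, but 3 with DESeq2 and 2 with span offsets, with the replicate block and without the 4 rats; genes of import, membrane and biogenesis held 3, but 1 with total counts, without a filter, with the replicate block and with reads drawn down. Uniporter and channel genes held 3 lower, but 1 with total counts and without a filter, and 1 higher, but 0 without a filter, with reads drawn down and without the 4 rats.

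Same-numbered rats deviated together with a mean r of 0.145, over 0.1 in 6 of 10 pairs, and 3 of 20 rats correlated best with their own number, so the numbers are not taken as pairing. With the replicate block 8 members were lower and 1 higher, and the log2 ratio difference Slc25a23/Slc25a25 (-0.12) passed (adjusted p = 0.0195, exact sign-flip test).

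Directions turned for values near 0. The log2 fold change of Slc25a13 was 0.033 with total counts, 0.0056 without a filter, 0.012 with reads drawn down, 0.040 without the 4 rats and -0.089 to 0.069 with 1 rat left out. The log2 fold change of Slc25a37 was 0.042, 0.014, 0.11 and 0.059 in the same order, 0.0068 with filterByExpr, 0.00017 with the replicate block and -0.023 to 0.055 with 1 rat left out. The log2 fold change of Slc25a12 was -0.059 with span offsets and -0.061 with the block added. The log2 ratio difference Slc25a12/Slc25a13 was -0.037 without the 4 rats and -0.055 to 0.093 with 1 rat left out. With 1 rat left out, the log2 ratio difference Slc25a28/Slc25a37 was -0.23 to -0.14 and the log2 ratio difference Slc25a33/Slc25a36 -0.32 to -0.22; the first passed without saline 8 (-0.23), the second without LSD 10 (-0.32) and without saline 7, 8 or 10 (-0.31, -0.28 and -0.31). Without the 4 rats, the log2 ratio difference Slc25a4/Slc25a5 (-0.085) and that of *Slc25a28* and *Slc25a37* (-0.24) passed.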

Other observations

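*Slc25a36l1*, a symbol that the choice of members leaves out, resembles *Slc25a36* in name and had 5 to 31 reads per rat. It had 0.972 ± 0.217 normalised RPM with LSD and 0.737 ± 0.238 with saline (SD, n = 10), a log2 fold change of 0.40 (standard error 0.19, edgeR adjusted p = 0.154). The 7 *Slc25a* symbols not kept, *Slc25a22*, *Slc25a31*, *Slc25a41*, *Slc25a47*, *Slc25a51*, *Slc25a52* and *Slc25a54*, had at most 16 reads in any rat and reached 5 reads in at most 6 of the 20 libraries; for *Slc25a22*, a known brain carrier, the annotation used for counting is not given and the reads cannot be taken as its expression level. The kept members nearest to that limit were *Slc25a6*, with 5 reads in 7 LSD-treated rats and 6 controls, and *Slc25a21*, in 7 and 8.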
